A study of Mus musculus with 10 samples.

Results

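Solute carriers are the largest group of membrane transporters in animal cells, and 136 genes with an Slc symbol outside the mitochondrial family were expressed in these macrophage cultures. They are called carriers or members here, although 4 of them encode proteins that are not transporters. A gene was included if its symbol began with Slc and a digit, if it was not an Slc25a gene, the family of mitochondrial carriers, and if 5 or more of the 10 samples were at 1 FPKM or above. FPKM, fragments scaled by gene length and by the reads counted in the sample, is a value per length, so levels of different genes can be set side by side. Of 326 Slc symbols among the 16936 genes of the deposited table, 44 were Slc25a genes, 8 were left out by name (Slc2a1, Slc7a2, Slc7a11, Slc11a1, Slc11a2, Slc30a1, Slc39a14 and Slc40a1) and 138 did not reach the level. The expression level thus chose the members, and levels are given as a description. Just inside the limit lay Slc51a, whose 5th highest sample was at 1.09 FPKM, and Slc10a1 and Slc35g1, both at 1.13 FPKM. Just outside it lay Slc2a9 at 0.978 FPKM and Slc29a2 at 0.963 FPKM.

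The cells were mouse bone marrow-derived macrophages, made by culturing marrow for 7 days with the cytokine GM-CSF at 50 ng/mL. Of the 10 RNA-seq samples, 5 were untreated and 5 had received PLG, human plasminogen according to the series' design text, for 24 h. Both groups thus shared GM-CSF and differed in PLG, whose dose and preparation the labels do not give. The labels name neither strain, genotype, sex nor age of the mice, and do not tie a sample to an animal or culture, so the p-values below rest on a spread between samples that may be technical.

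Carriers move amino acids, sugars, nucleosides, vitamins, metals, ions and lipids across the plasma membrane and across the membranes of organelles. Many couple transport to the sodium gradient that the sodium potassium pump builds, or to the proton gradient of endosomes and lysosomes. In macrophages they supply the amino acids of activated cells, export lactate from glycolysis, and retrieve amino acids, nucleosides, sugars and haem from digested material in phagosomes and lysosomes.

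The libraries held between 28426105 and 64214560 reads on the genes of the table, recovered from the steps of the FPKM values, and 1 read on a gene of 1 kb corresponded to 0.0141 to 0.0313 FPKM. Correlations between samples were 0.976 to 0.995 inside the groups and 0.847 to 0.868 across them. All 8 macrophage markers were expressed, and their summed level was 5966 to 7485 FPKM in untreated and 2641 to 2868 FPKM in PLG samples (6 markers lower with PLG, 1 higher and 1 not past the threshold). Lyz2 made up most of this sum, at 5792 ± 561 FPKM in untreated and 2000 ± 77.9 FPKM in PLG samples. The higher marker was Adgre1, at 80 ± 4.8 FPKM in untreated and 177 ± 9.79 FPKM in PLG samples. Of 6 dendritic cell markers 5 were tested, with 3 higher and 2 lower, and their sum was 265 to 295 FPKM in untreated and 165 to 182 FPKM in PLG samples. Itgax made up most of that sum, at 270 ± 14.9 FPKM in untreated and 156 ± 6.59 FPKM in PLG samples. The 3 higher markers were at lower levels. Zbtb46 rose from 1.71 to 6.4 FPKM, Dpp4 from 2.08 to 7.34 FPKM and Flt3 from 0.113 to 2.1 FPKM on average. Flt3 and the lower marker Cd209a reached 1 FPKM in all samples of a single group and in none of the other. They had to differ in order to be tested. Neutrophil markers summed to 8.04 to 18.1 FPKM in untreated and 15.5 to 23.8 FPKM in PLG samples, and of 3 tested S100a8 and Camp were higher with PLG and S100a9 did not pass. Camp reached 1 FPKM only in PLG samples, so it too had to differ in order to be tested. Those of T, B, NK, erythroid and stromal cells summed to at most 1.16 FPKM in any sample, and those of mast cells and basophils to at most 3.90 FPKM. In bulk RNA, fewer cells of a type and less RNA per cell cannot be told apart, and the part of these shifts in the carriers' values was not tested.

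With PLG, carrier expression was redistributed in both directions. Of the 136 members 37 rose, 57 fell and 42 did not pass the threshold, an adjusted p of 0.05 from limma on log2(FPKM + 1) with Benjamini-Hochberg adjustment over 9997 tested genes. Over all tested genes 60.4% were called, 29.1% higher and 31.3% lower, against 69.1% of the members, 27.2% higher and 41.9% lower. The share of rising carriers was thus near that of all genes and the share of falling carriers above it, as a description and with no test of the list. The median log2 fold change was -0.12 over the members and -0.02 over all tested genes. For 79 members, 58.1%, the 5 samples of one group lay wholly above the 5 of the other, as they did for 47.2% of all tested genes. By a fold of 2 or more 11 members rose and 15 fell. On this scale 8.35% of all tested genes rose and 5.67% fell by as much.

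The summed level of the members was 1975 to 2043 FPKM in the untreated and 2223 to 2323 FPKM in the PLG samples, so the total was higher in every PLG sample although more members fell than rose. As a share of the summed FPKM of all tested genes the groups overlapped, at 0.668% to 0.852% in untreated and 0.78% to 0.978% in PLG samples. Expression became more concentrated: the 10 most abundant members of each group made up 41.5% of the summed FPKM in untreated and 50.9% in PLG samples, and 8 members stood in both lists. The median member was at 6.94 FPKM in untreated and 5.96 FPKM in PLG samples. Across both groups Slc48a1 and Slc6a6 were the most abundant carriers. They were followed by Slc15a3, Slc3a2, Slc6a12, Slc31a2, Slc39a1, the scaffold gene Slc9a3r1, Slc2a6 and Slc6a8.

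**Figure D1:**
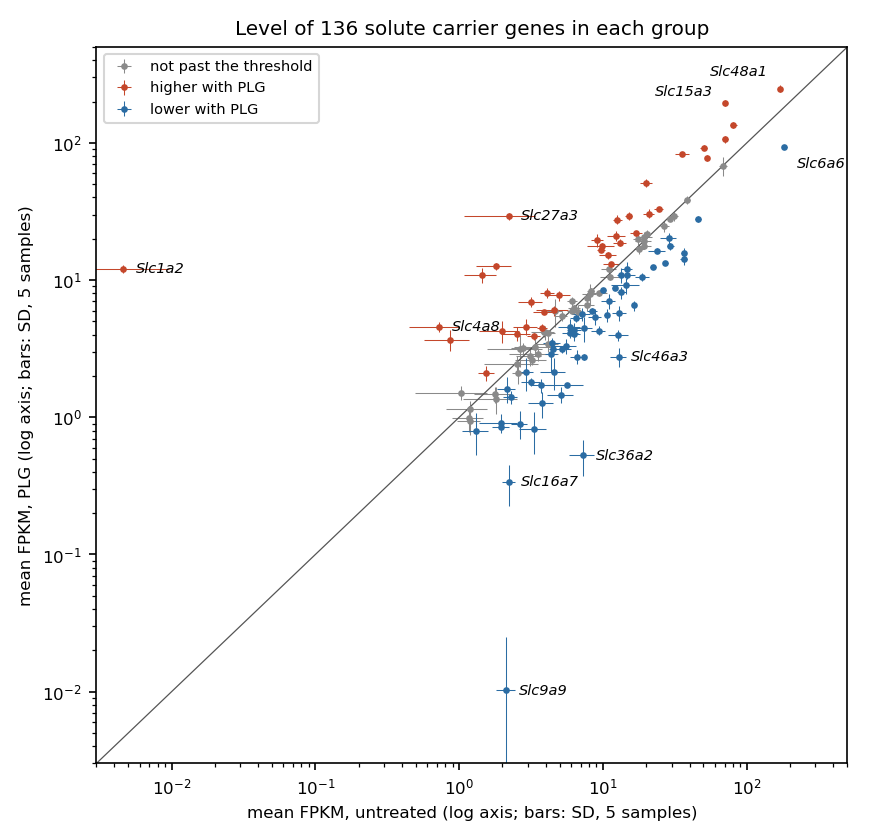
Mean FPKM of each of the 136 members in untreated samples (horizontal, log axis) and PLG samples (vertical, log axis), with bars for the SD over 5 samples; the diagonal marks equal levels, and lower bars longer than the axis end at its edge. Slc1a2 stands far above and Slc9a9 far below the diagonal, while Slc48a1 and Slc15a3 are the most abundant members with PLG.

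Slc48a1 (ENSMUSG00000081534.3, chromosome 15, 97778520 to 97792692, plus strand), which carries haem out of phagolysosomes, measured 170.5, 166, 174, 166 and 175 FPKM in untreated samples 1 to 5 and 238, 255, 229.8, 252 and 268 FPKM in PLG samples 1 to 5. Every PLG sample was above every untreated one, and the log2 fold change was 0.54 with an SE of 0.0472 and an adjusted p of 2.6e-07 in limma. Slc6a6 (ENSMUSG00000030096.8, chromosome 6, 91684053 to 91759066, plus strand), the taurine transporter, was the most abundant carrier of untreated cells and measured 182, 184, 171, 190.3 and 184 FPKM in untreated samples 1 to 5 and 93.1, 91.8, 92.5, 92.7 and 95.4 FPKM in PLG samples 1 to 5. Its level was 1.96 times lower with PLG, without overlap of the groups, a log2 fold change of -0.96 with an SE of 0.0395 and an adjusted p of 1.15e-10 in limma.

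Slc1a2, Slc9a9, Slc36a2, Slc16a7 and Slc18a1 reached 1 FPKM in all samples of one group and in no sample of the other. They had to differ in order to be included, so their values are a description with no test. Without them, 36 of 131 members rose, 53 fell and 42 did not pass, where 58.9% of the 9616 tested genes left by the same exclusion were called, 28% higher and 30.8% lower. The counts of their classes below include them. Among called members, Slc4a8, Slc1a4, Slc26a11, Slc12a7 and Slc17a9 reached 1 FPKM throughout a single group and in 1 or 2 samples of the other. Their inclusion rested on the group in which they were high, which limits the reading of their tests below.

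Slc1a2 (ENSMUSG00000005089.15, chromosome 2, 102658659 to 102790784, plus strand) encodes a high-affinity glutamate transporter best known from astrocytes. It measured 0.004, 0.002, 0.004, 0 and 0.013 FPKM in untreated samples 1 to 5 and 11.2, 11.5, 11.7, 13 and 12.8 FPKM in PLG samples 1 to 5. The untreated libraries held 12 reads of this gene in all and the PLG libraries 38569, a ratio of 2440 after division by the libraries' read totals. Slc9a9, a sodium proton exchanger of endosomes, showed the reverse, with 2.33, 1.74, 1.86, 2.48 and 2.24 FPKM in untreated samples 1 to 5 and 0, 0, 0.019, 0.032 and 0 FPKM in PLG samples 1 to 5. The untreated libraries held 2234 reads of it in all and the PLG libraries 12, and 3 PLG samples were listed at 0. Slc36a2, a proton-coupled amino acid transporter, went from 7.26 ± 1.45 to 0.527 ± 0.156 FPKM, and Slc16a7, a monocarboxylate transporter, from 2.2 ± 0.227 to 0.339 ± 0.112 FPKM. Slc18a1, a vesicular monoamine transporter, went from 1.96 ± 0.261 to 0.856 ± 0.0645 FPKM and stayed just under 1 FPKM in each PLG sample.

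The sequence before the start of Slc1a2 is shown because this gene went from 7 or fewer reads per library to 5831 or more. It is the 250 bases before the start in the RefSeq promoter table, chr2:102706188-102706437 on build GRCm38.p6, plus strand, 5′ to 3′. That start lies inside the span that the deposited table gives the gene, and no value here tells which start the cells used.
Slc1a2: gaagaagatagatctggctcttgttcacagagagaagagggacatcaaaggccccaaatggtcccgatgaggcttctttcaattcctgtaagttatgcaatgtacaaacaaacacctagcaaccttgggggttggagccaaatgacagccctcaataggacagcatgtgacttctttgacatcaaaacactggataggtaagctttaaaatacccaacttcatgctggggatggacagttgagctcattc
None of the 5 motifs searched in these promoters, given further on, was found in it.

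The largest changes among the other members reached from -1.89 to 3.30 on the log2(FPKM + 1) scale. The 8 members with the largest rise and the 8 with the largest fall, among those with a mean of at least 2 FPKM, are described in their classes below with the value of every sample. None of these 16 had overlapping groups, which follows largely from their choice as called members with the largest changes. Over all tested genes the groups did not overlap in 47.2%.

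**Figure D2:**
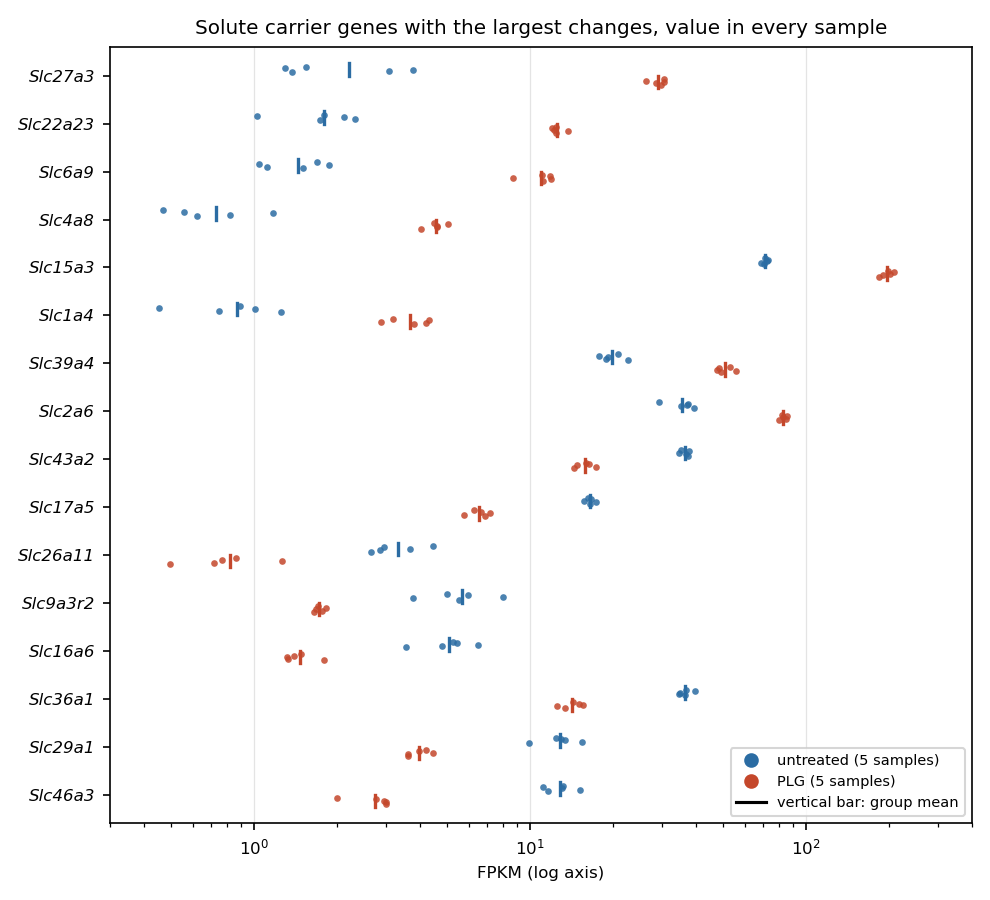
FPKM (log axis) in each of 10 samples for the 8 members with the largest rise and the 8 with the largest fall; points are samples, blue for untreated and red for PLG, and short vertical bars are group means. In each row all 5 samples of one group lie on one side of all 5 of the other, and Slc27a3 went from 2.21 to 29.2 FPKM on average.

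Transporters of amino acids, peptides and amine osmolytes were the largest class, and moved both ways. Of 28 members 11 rose, 10 fell and 7 did not pass, with a median log2 fold change of 0.01, and their summed level went from 743 ± 8.99 to 836 ± 22.5 FPKM. After Slc1a2, given above, the largest rise in the class was that of Slc6a9. This gene (ENSMUSG00000028542.17, chromosome 4, 117834506 to 117875198, plus strand), a glycine transporter of the plasma membrane, measured 1.51, 1.11, 1.86, 1.05 and 1.69 FPKM in untreated samples 1 to 5 and 11.2, 12, 8.64, 11.8 and 11 FPKM in PLG samples 1 to 5. The PLG samples were 7.57 times the untreated mean, a log2 fold change of 2.29 with an SE of 0.113 and an adjusted p of 7.13e-10 in limma. Of the exonic bases of Slc6a9 30.2% also lie in exons of other genes, and of these B4galt2 (at 0.0614 FPKM in untreated and 0.163 FPKM in PLG samples) and Ccdc24 (0 and 0.123 FPKM) were hardly expressed.

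Slc1a4, which exchanges alanine, serine and cysteine, measured 1.25, 0.746, 1, 0.454 and 0.886 FPKM in untreated samples 1 to 5 and 3.79, 4.18, 2.89, 4.32 and 3.2 FPKM in PLG samples 1 to 5. All PLG samples were above all untreated ones, with a log2 fold change of 1.33 with an SE of 0.127 and an adjusted p of 6.86e-07 in limma. Its relative Slc1a5, the main glutamine exchanger of the family, moved the other way, from 23.7 ± 3.32 to 16.4 ± 0.682 FPKM (log2 change -0.50 with an SE of 0.0829 and an adjusted p of 0.000148 in limma). Slc16a10, a carrier of aromatic amino acids, rose from 3.17 ± 0.608 to 6.94 ± 0.613 FPKM.

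Slc15a3 (ENSMUSG00000024737.2, chromosome 19, 10839727 to 10859362, plus strand) encodes a proton-coupled transporter of histidine and short peptides in endosomes and lysosomes. It measured 70.5, 68.7, 72, 72.6 and 71.1 FPKM in untreated samples 1 to 5 and 183, 191, 203, 208 and 199 FPKM in PLG samples 1 to 5. The lowest PLG sample was far above the highest untreated one, and the log2 fold change was 1.46 with an SE of 0.0434 and an adjusted p of 5.65e-12 in limma. Of its exonic bases 28.1% lie in exons of Tmem132a as well, a gene that itself rose from 11.2 ± 1.16 to 22.1 ± 1.62 FPKM, so some reads could belong to either gene. The close relative Slc15a4, found in the same organelles, fell from 13.4 ± 0.97 to 8.12 ± 0.789 FPKM (log2 change -0.66 with an SE of 0.0729 and an adjusted p of 2.74e-06 in limma).

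Slc3a2, the heavy chain that the large neutral and cationic amino acid transporters of the Slc7 family need to reach the membrane, measured 74.9, 79.7, 84.8, 77.5 and 85.2 FPKM in untreated samples 1 to 5 and 136, 144, 126, 129 and 139 FPKM in PLG samples 1 to 5. It rose with no overlap, with a log2 fold change of 0.74 with an SE of 0.0516 and an adjusted p of 2.7e-08 in limma. Its light chains, named here after their values were seen, divided. Slc7a8 rose from 15.1 ± 0.875 to 29.4 ± 2.19 FPKM (log2 change 0.92 with an SE of 0.0607 and an adjusted p of 1.46e-08 in limma), while Slc7a5, the best known leucine importer, was at 11 ± 1.38 FPKM without PLG and 12 ± 1.16 FPKM with it and did not pass (adjusted p = 0.243). Slc7a6 rose from 4.58 ± 1.15 to 6.01 ± 0.502 FPKM (limma adjusted p = 0.0347), a call that was lost without untreated sample 5 (0.0547) or without PLG sample 2 (0.0564), 3 (0.05005), 4 (0.0546) or 5 (0.0834), and with no filter on low genes (0.0774). Slc7a7 was at 4.64 ± 0.587 FPKM without PLG and 5.94 ± 1.36 FPKM with it and did not pass (adjusted p = 0.0618), but did without untreated sample 2 (0.0357) or PLG sample 2 (0.0155). Slc7a1, an arginine carrier that works without the heavy chain, rose from 3.89 ± 0.658 to 5.83 ± 0.179 FPKM.

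Falling members of the class included carriers that empty lysosomes or carry large neutral amino acids. Slc36a1 (ENSMUSG00000020261.15, chromosome 11, 55204350 to 55236330, plus strand), which passes small amino acids and protons out of lysosomes, measured 36.5, 34.6, 35, 39.6 and 36.8 FPKM in untreated samples 1 to 5 and 13.4, 12.5, 15.5, 15 and 14.3 FPKM in PLG samples 1 to 5. Slc43a2, a carrier of leucine, phenylalanine and methionine, measured 37.5, 36.9, 34.8, 37.7 and 35.4 FPKM in untreated samples 1 to 5 and 14.4, 17.4, 14.7, 16.4 and 15.9 FPKM in PLG samples 1 to 5. In both genes the highest PLG sample was below the lowest untreated one, and the log2 fold changes were -1.31 with an SE of 0.0631 and an adjusted p of 5.35e-10 in limma and -1.16 with an SE of 0.0563 and an adjusted p of 5.89e-10 in limma. Slc36a4 fell from 29.4 ± 1.66 to 17.6 ± 0.997 FPKM.

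Among osmolyte carriers, Slc6a12, which takes up betaine and GABA, rose from 70.8 ± 3.5 to 107 ± 6.11 FPKM, and its neighbour Slc6a13 rose from 1.99 ± 0.621 to 4.27 ± 0.791 FPKM, in contrast to the taurine carrier Slc6a6. The creatine transporter Slc6a8 was at 38.6 ± 1.86 FPKM without PLG and 38.4 ± 2.37 FPKM with it and did not pass (adjusted p = 0.923). None of the Slc38 family, which carries glutamine and other neutral amino acids, rose: Slc38a1 fell from 12 ± 0.496 to 8.71 ± 0.148 FPKM, and Slc38a2 was at 31.3 ± 1.95 FPKM without PLG and 29.1 ± 2.02 FPKM with it and did not pass (adjusted p = 0.149). The falling members not yet named were Slc38a9, a lysosomal amino acid sensor, and Slc6a4, the serotonin transporter, while Slc38a6, Slc38a7 and Slc38a10 did not pass.

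Carboxylate carriers were few. Slc16a3, the lactate exporter of glycolytic cells, rose from 12.4 ± 1.74 to 21 ± 1.8 FPKM (log2 change 0.72 with an SE of 0.0911 and an adjusted p of 1.08e-05 in limma). Slc16a1, which carries lactate and pyruvate in either direction, fell from 4.35 ± 0.415 to 2.89 ± 0.747 FPKM (log2 change -0.48 with an SE of 0.129 and an adjusted p of 0.00583 in limma), and Slc16a7, given above, was lower as well. In this family Slc16a3 had 2.85 times the level of Slc16a1 in untreated samples and 7.26 times with PLG, as ratios of mean FPKM.

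Carriers of sugars, polyols and sugar phosphates fell in 5 of 8 cases, rose in 1 and did not pass in 2, with a median of -0.54, yet their summed level was 1.20 times higher because the rising gene was the most abundant. Slc2a6 (ENSMUSG00000036067.12, chromosome 2, 27021363 to 27027998, minus strand), a lysosomal member of the glucose transporter family, measured 39.2, 35.2, 37, 37.3 and 29.5 FPKM in untreated samples 1 to 5 and 79.9, 84.6, 82.8, 85.4 and 81.7 FPKM in PLG samples 1 to 5. Untreated sample 5 was the lowest, every PLG sample was above every untreated one, and the log2 fold change was 1.20 with an SE of 0.0661 and an adjusted p of 2.16e-09 in limma. Slc17a5 (ENSMUSG00000049624.14, chromosome 9, 78536488 to 78588041, minus strand), which exports sialic acid from lysosomes, measured 16.5, 17.3, 15.7, 16.7 and 16.2 FPKM in untreated samples 1 to 5 and 6.84, 5.76, 7.18, 6.67 and 6.24 FPKM in PLG samples 1 to 5. It fell in all 5 PLG samples below every untreated one, with a log2 fold change of -1.22 with an SE of 0.0625 and an adjusted p of 1.08e-09 in limma.

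Each of the 3 expressed sugar phosphate carriers of the Slc37 family fell, namely Slc37a2 from 18.7 ± 2.08 to 10.6 ± 0.663 FPKM, Slc37a3 from 9.31 ± 1.07 to 4.27 ± 0.323 FPKM and Slc37a4, the glucose-6-phosphate transporter of the endoplasmic reticulum, with a log2 fold change of -0.31 (limma adjusted p = 0.0305). Slc5a3, which takes up myo-inositol with sodium, fell from 3.73 ± 0.636 to 1.71 ± 0.193 FPKM. Slc50a1 was at 8.08 ± 0.929 FPKM without PLG and 7.98 ± 1.4 FPKM with it and Slc2a8 at 3.38 ± 0.954 FPKM without PLG and 3.28 ± 0.504 FPKM with it, and these did not pass.

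Nucleoside and nucleotide sugar carriers mostly fell or did not pass, 7 lower, 1 higher and 9 not past of 17, with a median of -0.20. Slc29a1 (ENSMUSG00000023942.15, chromosome 17, 45585200 to 45599606, minus strand), the equilibrative nucleoside transporter of the plasma membrane, measured 9.91, 15.5, 13.4, 12.9 and 12.4 FPKM in untreated samples 1 to 5 and 3.62, 3.6, 4.46, 3.96 and 4.2 FPKM in PLG samples 1 to 5. Its level with PLG was 3.23 times lower, a log2 fold change of -1.47 with an SE of 0.0994 and an adjusted p of 1.9e-08 in limma. Slc29a3, its counterpart in lysosomes, fell from 45.6 ± 2.17 to 27.9 ± 1.32 FPKM, and Slc17a9, which loads ATP into vesicles, from 1.96 ± 0.578 to 0.912 ± 0.145 FPKM. The rising gene was Slc43a3, a carrier of purine bases, from 2.54 ± 0.593 to 4.07 ± 0.496 FPKM.

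The Slc35 family, with 20 expressed members the largest of all, feeds nucleotide sugars into the Golgi and the endoplasmic reticulum. None of its members rose, 9 fell and 11 did not pass. The largest fall in the family was that of Slc35c2 from 13 ± 1.38 to 5.77 ± 0.717 FPKM, followed by Slc35f6, whose substrate is not settled, from 27.2 ± 0.974 to 13.2 ± 0.336 FPKM. Slc35c1, the GDP-fucose carrier, was at 20.2 ± 0.478 FPKM without PLG and 21.7 ± 1.59 FPKM with it and Slc35b1 at 19.4 ± 2.35 FPKM without PLG and 20.6 ± 1.87 FPKM with it, and neither passed. Also lower were Slc35a5, Slc35b2, Slc35b3, Slc35e2, Slc35e3, Slc35f5 and Slc35g1, with log2 fold changes between -0.46 and -0.27. Slc35a1, Slc35a2, Slc35a3, Slc35a4, Slc35b4, Slc35d1, Slc35d2, Slc35e1 and Slc35e4 did not pass, between -0.20 and 0.08.

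**Figure D3:**
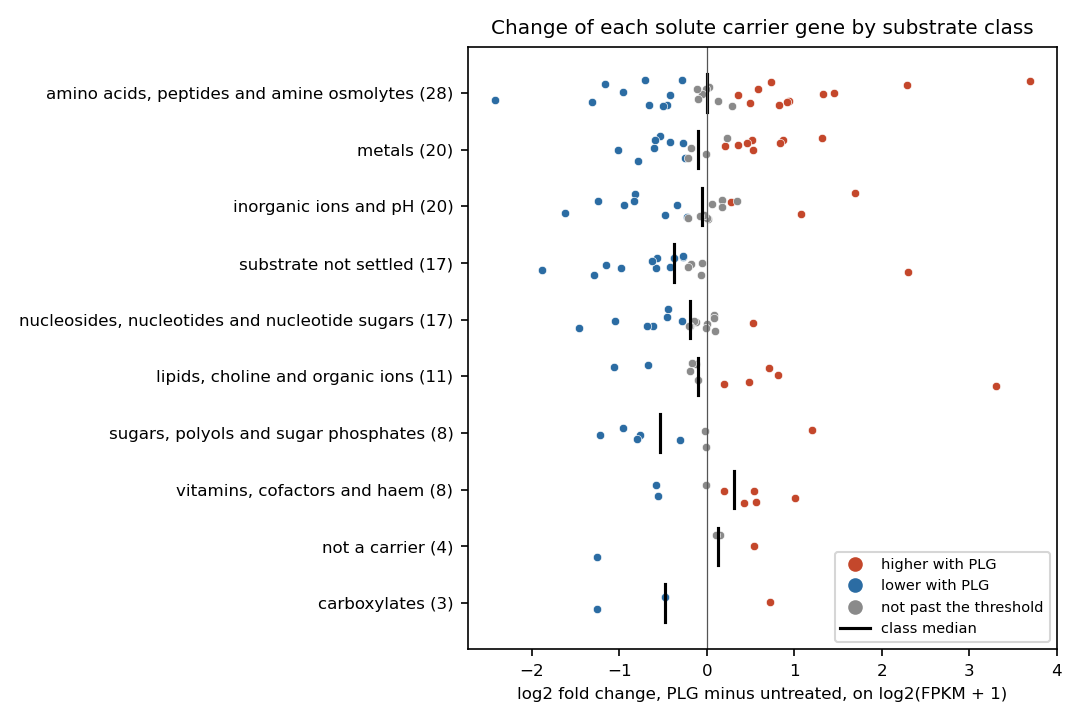
Log2 fold change of each member (horizontal, PLG minus untreated, on log2(FPKM + 1)) by substrate class, with the number of members in brackets; red points rose, blue points fell, grey points did not pass, and black bars are class medians. The medians lie between -0.54 for sugars and 0.31 for vitamins, cofactors and haem, and every class of 8 or more members holds points on both sides of 0.

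Carriers of vitamins, cofactors and haem had the highest class median, 0.31, with 5 of 8 members higher, 2 lower and 1 not past. Beside Slc48a1, Slc33a1, which brings acetyl-CoA into the endoplasmic reticulum, rose from 9.14 ± 0.88 to 19.5 ± 2.09 FPKM (log2 change 1.01 with an SE of 0.0801 and an adjusted p of 9.28e-08 in limma), although 32% of its exonic bases lie in another gene model. Slc23a2, an ascorbate carrier, rose from 24.4 ± 1.71 to 33 ± 1.29 FPKM, and Slc52a3, a riboflavin carrier, from 4.97 ± 0.878 to 7.73 ± 0.662 FPKM. The thiamine carrier Slc19a2 fell from 5.49 ± 1 to 3.3 ± 0.429 FPKM, and Slc5a6, which takes up biotin and pantothenate, from 3.17 ± 0.48 to 1.82 ± 0.12 FPKM. The folate carrier Slc46a1 was at 1.19 ± 0.377 FPKM without PLG and 1.16 ± 0.147 FPKM with it and did not pass, and Slc52a2 was the other rising member, by 0.19 (limma adjusted p = 0.0482).

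Metal carriers divided evenly, with 8 of 20 higher, 8 lower and 4 not past. Slc39a4 (ENSMUSG00000063354.7, chromosome 15, 76612383 to 76617384, minus strand), a zinc importer of the plasma membrane, measured 22.6, 18.9, 19.2, 17.8 and 20.9 FPKM in untreated samples 1 to 5 and 49.1, 55.9, 47.6, 48.5 and 53.1 FPKM in PLG samples 1 to 5. The lowest PLG sample exceeded the highest untreated one, and the log2 fold change was 1.31 with an SE of 0.0679 and an adjusted p of 1.15e-09 in limma. It was the rising exception in its family: of 10 expressed Slc39 genes, which carry zinc and in part manganese into the cytosol, 6 fell and 3 did not pass. Slc39a10 fell from 6.64 ± 0.754 to 2.77 ± 0.327 FPKM, Slc39a11 from 22.4 ± 1.08 to 12.5 ± 0.363 FPKM and Slc39a2 from 14.5 ± 3.18 to 9.13 ± 1.18 FPKM. The falling members were completed by Slc39a6, Slc39a9 and Slc39a13, while Slc39a1 was at 68.1 ± 4.35 FPKM without PLG and 68.2 ± 10.5 FPKM with it and did not pass, nor did Slc39a3 and Slc39a7. Slc39a3 passed as lower without untreated sample 1 (limma adjusted p = 0.0369) or PLG sample 3 (0.0294). Reads of Slc39a7 are uncertain, since 80.7% of its exonic bases lie in a second gene model.

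Zinc exporters of the Slc30 family moved apart too. Slc30a4, which fills endosomal vesicles, Slc30a6 and Slc30a9 rose, and Slc30a5 and Slc30a7 fell. Slc30a4 went from 10.8 ± 1.47 to 15.1 ± 0.882 FPKM and Slc30a5 from 8.77 ± 0.883 to 5.43 ± 0.73 FPKM.

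Both copper carriers rose. Slc31a1, the high-affinity importer, went from 20.9 ± 1.77 to 30.5 ± 2.4 FPKM (log2 change 0.53 with an SE of 0.0682 and an adjusted p of 1.34e-05 in limma), and Slc31a2, a relative found in endosomes and lysosomes, from 50.1 ± 2.67 to 92.5 ± 4.03 FPKM (log2 change 0.87 with an SE of 0.0485 and an adjusted p of 2.38e-09 in limma). The magnesium carriers Slc41a1 and Slc41a2 rose, Slc41a1 from 4.1 ± 0.471 to 8.07 ± 0.688 FPKM, and Slc41a3 did not pass.

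Among carriers of inorganic ions and pH regulators 3 of 20 rose, 8 fell and 9 did not pass, with a median of -0.05. With sample weights, and with voom on the recovered reads, 6 rose. Slc4a8 (ENSMUSG00000023032.12, chromosome 15, 100761747 to 100823968, plus strand), a sodium-driven chloride bicarbonate exchanger, measured 0.62, 0.817, 1.17, 0.555 and 0.469 FPKM in untreated samples 1 to 5 and 4.03, 4.61, 4.61, 5.07 and 4.48 FPKM in PLG samples 1 to 5. Among untreated samples only sample 3 was above 1 FPKM, the PLG samples were all well above it, and the log2 fold change was 1.70 with an SE of 0.109 and an adjusted p of 1.04e-08 in limma. Slc20a1, a sodium-coupled phosphate importer, rose from 12.6 ± 0.913 to 27.6 ± 2.15 FPKM (log2 change 1.07 with an SE of 0.0655 and an adjusted p of 6.25e-09 in limma), and its relative Slc20a2 from 1.55 ± 0.2 to 2.09 ± 0.268 FPKM. Of the exonic bases of Slc20a1 13.1% also lie in other gene models.

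Slc26a11 (ENSMUSG00000039908.14, chromosome 11, 119355557 to 119381079, plus strand), a sulfate and chloride carrier found in lysosomes, measured 2.65, 2.87, 3.66, 2.96 and 4.43 FPKM in untreated samples 1 to 5 and 0.497, 0.714, 1.26, 0.768 and 0.862 FPKM in PLG samples 1 to 5. PLG sample 3 was the highest of its group and still below every untreated sample, and the log2 fold change was -1.24 with an SE of 0.131 and an adjusted p of 1.84e-06 in limma. The potassium chloride cotransporter Slc12a7 fell from 2.64 ± 0.331 to 0.898 ± 0.208 FPKM. Slc9a7, a sodium proton exchanger of the Golgi, fell from 4.55 ± 0.901 to 2.15 ± 0.577 FPKM, next to Slc9a9 above. Lower were also Slc26a2, Slc26a6 and Slc8b1, a sodium calcium exchanger known from mitochondria although it is no Slc25a gene. Slc4a2, Slc4a7, Slc8a1, Slc9a5, Slc9a8, Slc12a4 and Slc26a1 did not pass.

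Lipid, choline and organic ion carriers showed the highest ratio of summed FPKM, 1.65, with 5 of 11 members higher, 2 lower and 4 not past. Most of the difference came from Slc27a3 (ENSMUSG00000027932.14, chromosome 3, 90385239 to 90389938, minus strand), a member of the fatty acid transport protein family with acyl-CoA synthetase activity. It measured 1.37, 3.07, 3.76, 1.29 and 1.54 FPKM in untreated samples 1 to 5 and 29.9, 28.7, 30.7, 26.3 and 30.5 FPKM in PLG samples 1 to 5. Untreated samples 2 and 3 were the highest of their group, the lowest PLG sample was still far above these, and the log2 fold change was 3.30 with an SE of 0.182 and an adjusted p of 2.19e-09 in limma. Slc27a4 rose from 9.74 ± 0.592 to 16.6 ± 0.698 FPKM and Slc27a1 by 0.19 (limma adjusted p = 0.0438), whereas Slc27a6 fell from 3.74 ± 0.758 to 1.26 ± 0.275 FPKM.

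The 250 bases before the start of Slc27a3 are shown as those of the tested member with the largest rise (chr3:90389939-90390188, minus strand, build GRCm38.p6, RefSeq promoter table). None of the motifs searched was found in it.
Slc27a3: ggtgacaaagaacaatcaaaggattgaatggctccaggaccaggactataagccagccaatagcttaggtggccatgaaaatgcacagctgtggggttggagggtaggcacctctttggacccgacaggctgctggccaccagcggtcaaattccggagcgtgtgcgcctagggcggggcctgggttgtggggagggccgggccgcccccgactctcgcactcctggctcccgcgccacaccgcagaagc

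Slc22a4, a carrier of the antioxidant ergothioneine, rose from 9.84 ± 2.1 to 17.7 ± 0.76 FPKM, and the choline carrier Slc44a1 from 13.2 ± 1.38 to 18.8 ± 1.02 FPKM. The carnitine carrier Slc22a5, next to Slc22a4 on chromosome 11, was at 3.09 ± 0.599 FPKM without PLG and 2.8 ± 0.445 FPKM with it and did not pass. Slc44a2 was at 9.43 ± 1.2 FPKM without PLG and 8.1 ± 0.404 FPKM with it and did not pass (adjusted p = 0.0585). It passed as lower without untreated sample 1 (0.0160) or 2 (0.0278). The bile acid carriers Slc10a1 and Slc51a lay near 1 FPKM and did not pass.

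The class of carriers whose substrate is not settled fell most often, with 12 of 17 members lower, 1 higher and 4 not past and a median of -0.38. Slc46a3 (ENSMUSG00000029650.10, chromosome 5, 147878437 to 147894815, minus strand), a carrier of the lysosomal membrane, had the largest fall of all tested members. It measured 11.6, 15.2, 13.1, 11.2 and 13.2 FPKM in untreated samples 1 to 5 and 3.02, 3, 2.95, 2.77 and 2 FPKM in PLG samples 1 to 5. The groups were far apart, PLG sample 5 was the lowest of all, and the log2 fold change was -1.89 with an SE of 0.101 and an adjusted p of 1.61e-09 in limma. Slc16a6 measured 3.56, 4.81, 6.48, 5.42 and 5.26 FPKM in untreated samples 1 to 5 and 1.8, 1.33, 1.32, 1.4 and 1.48 FPKM in PLG samples 1 to 5, and fell without overlap with a log2 fold change of -1.29 with an SE of 0.119 and an adjusted p of 4.36e-07 in limma, with 23.5% of its exonic bases shared with Amz2, Arsg and another gene. Slc45a4 fell from 7.36 ± 0.264 to 2.76 ± 0.142 FPKM.

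Slc22a23 (ENSMUSG00000038267.15, chromosome 13, 34179158 to 34345182, minus strand), a member of the organic ion family, was the rising exception and measured 1.73, 2.31, 2.12, 1.02 and 1.79 FPKM in untreated samples 1 to 5 and 12.5, 13.7, 12.2, 12 and 12.4 FPKM in PLG samples 1 to 5. No untreated sample came near the PLG samples, whose mean was 7 times the untreated one, a log2 fold change of 2.30 with an SE of 0.115 and an adjusted p of 8.11e-10 in limma. Slc10a3, Slc12a9, Slc22a18 and Slc49a4 were lower as well, and Slc10a7 and Slc16a13 did not pass.

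The promoter of Slc46a3 (chr5:147894816-147895065, minus strand, 250 bases before the start) is shown as that of the tested member with the largest fall. Capitals mark a match to TGACNNNGC, the core of the antioxidant response element.
Slc46a3: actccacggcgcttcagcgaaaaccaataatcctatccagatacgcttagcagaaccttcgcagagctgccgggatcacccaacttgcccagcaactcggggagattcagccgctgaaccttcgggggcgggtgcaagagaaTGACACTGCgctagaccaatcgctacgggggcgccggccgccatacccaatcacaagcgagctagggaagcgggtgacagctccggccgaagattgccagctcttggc
That motif is common: it was found in the promoters of 24 of 105 matched members, 22.9%, and of 17.3% of the tested genes.

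A further 4 members carry an Slc symbol without being transporters. Of these Slc9a3r1 rose from 53.2 ± 1.41 to 77.6 ± 4.25 FPKM and Slc9a3r2 fell, with a log2 fold change of -1.26 with an SE of 0.134 and an adjusted p of 1.93e-06 in limma. Both are scaffold proteins that tether sodium proton exchangers and other membrane proteins to the cytoskeleton. By sample Slc9a3r2 measured 5.52, 3.78, 8.01, 5.98 and 4.98 FPKM in untreated samples 1 to 5 and 1.65, 1.76, 1.67, 1.82 and 1.7 FPKM in PLG samples 1 to 5, with the untreated samples spread widely and all above the PLG samples. Slc4a1ap at 3.87 ± 0.727 FPKM without PLG and 4.2 ± 0.373 FPKM with it and Slc7a6os at 2.79 ± 0.495 FPKM without PLG and 3.18 ± 0.294 FPKM with it did not pass.

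Members of 1 family moved apart in a minority of the families. The members fell into 40 families, 30 of them with 2 or more expressed genes, and in 10 of these at least 1 gene rose while another fell: Slc1, Slc6, Slc9, Slc15, Slc16, Slc22, Slc27, Slc30, Slc39 and Slc43. In the Slc9 family this count rests on the scaffold Slc9a3r1. Whether 10 differs from what the shares of rising and falling genes alone would give was not tested. All expressed genes were called in 1 direction in the Slc20, Slc31 and Slc52 families, which rose, and in the Slc5, Slc17, Slc29 and Slc37 families, which fell. The 3 expressed genes of the Slc36 family were all lower too, but Slc36a2 among them had no test.

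Carriers known to work in endosomes and lysosomes, a list of 16 members drawn up after the values had been seen and without Slc9a9, which had no test, were called in 14 cases. Of these 9 were lower and 5 higher, and 2 did not pass. Their median log2 fold change was -0.54, and in all 14 called members, 87.5% of the list, the groups did not overlap. Over all tested genes 60.4% were called, 29.1% higher and 31.3% lower, and in 47.2% the groups did not overlap. Those that rose were Slc15a3, Slc2a6, Slc31a2, Slc48a1 and Slc30a4, of which the first 4 are among the most abundant carriers of all. Those that fell were Slc46a3, Slc36a1, Slc26a11, Slc17a5, Slc36a4, Slc29a3, Slc15a4, Slc49a4 and Slc38a9. Slc38a7 was at 19.1 ± 2.43 FPKM without PLG and 19.4 ± 1.43 FPKM with it and did not pass, nor did Slc2a8. The list was chosen on these samples and is no independent evidence of a direction or of a high share of called members.

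**Figure D4:**
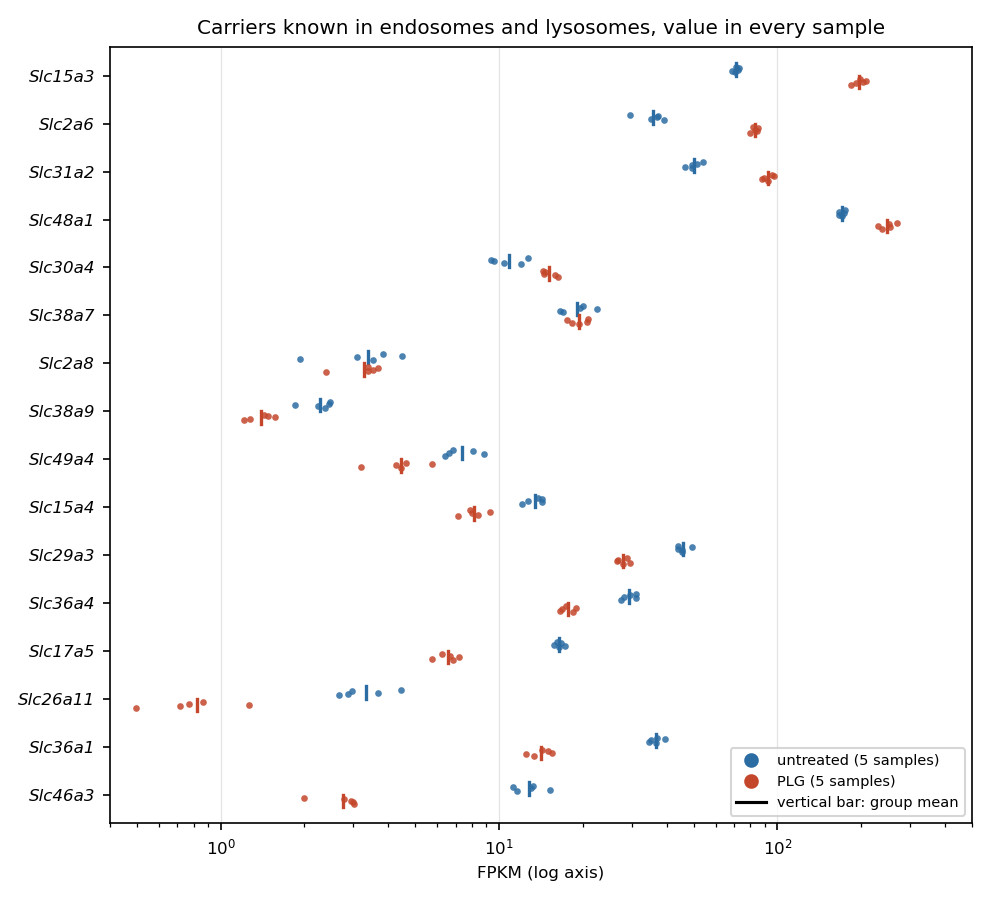
FPKM (log axis) in each of 10 samples for 16 carriers known in endosomes and lysosomes, ordered by log2 fold change; points are samples, blue for untreated and red for PLG, and short vertical bars are group means. The 5 uppermost genes rose, Slc38a7 and Slc2a8 overlap between groups, and the 9 genes below them fell without overlap.

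Promoter sequences of 250 bases before to 50 bases after the start were available for 105 of the 136 members, from RefSeq on build GRCm38.p6. They were searched on both strands for 5 short motifs: GGANTTTCC for NF-kB, GAAANNGAA for interferon regulatory factors, TGATGNAA for ATF4, TGACNNNGC for NRF2 and TCACGTGA for TFEB and its relatives, which govern lysosomal genes. A gene counted once if any of its promoters matched, so genes with more starts had more chances to match. The 105 members had 148 promoters, and the 8072 tested genes that were matched had 10284. For 74 of the 105 members the bases after the start occurred in a transcript of the gene. For the rest no such match was found, so their starts are less certain. TCACGTGA reads the same on both strands. It was found in 3 members, 2.86% of those matched, in 2.37% of tested genes and in 1.12% of all genes in the promoter table. All 3, Slc36a1, Slc37a3 and Slc35a5, were lower with PLG. The stretches around the matches, with TCACGTGA in capitals, are shown because they are the members that share it (Slc36a1 at chr11:55204310-55204351, plus strand, Slc37a3 at chr6:39377696-39377747 and Slc35a5 at chr16:45158731-45158790, both minus strand).
Slc36a1: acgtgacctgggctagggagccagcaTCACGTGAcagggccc
Slc37a3: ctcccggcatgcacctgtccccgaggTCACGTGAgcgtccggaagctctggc
Slc35a5: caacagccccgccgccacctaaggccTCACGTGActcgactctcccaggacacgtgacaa
In Slc36a1 a match to TGACNNNGC overlaps the capitals.

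The NF-kB motif was found in 4 members, 3.81% of those matched, against 1.65% of tested genes. Of these Slc6a12 and Slc6a13 rose and Slc30a7 and Slc37a4 fell. Slc6a13 and Slc6a12 lie 5342 bases apart on chromosome 6 and are shown as a neighbouring pair that rose together (Slc6a13 at chr6:121303537-121303597 and Slc6a12 at chr6:121342415-121342475, plus strand). Capitals mark the match, which in Slc6a12 is on the opposite strand. The Slc6a13 stretch lies inside the span that the deposited table gives the gene, and no value here tells which start the cells used.
Slc6a13: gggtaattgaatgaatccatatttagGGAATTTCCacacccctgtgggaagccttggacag
Slc6a12: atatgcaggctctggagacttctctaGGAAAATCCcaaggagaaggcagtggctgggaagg
The interferon motif was found in 5.71% of matched members and 8.76% of tested genes, and the ATF4 motif in 4.76% and 2.82%. A match is a description of letters and shows neither binding nor a cause.

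Of the 8 pairs of members that lie within 100 kb of each other, 3 pairs were both higher (Slc6a13 and Slc6a12, Slc31a2 and Slc31a1, and Slc52a2 and Slc39a4) and 2 pairs both lower (Slc36a2, which had no test, and Slc36a1, and Slc35b2 and Slc29a1). In the other 3 pairs 1 of the genes did not pass.

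Of 30 tested carriers that bear no Slc symbol 4 rose, 18 fell and 8 did not pass, with a median of -0.33. Among the 4, Slco5a1 reached 1 FPKM only in PLG samples and had to differ in order to be tested. It was at 0.121 ± 0.0702 FPKM without PLG and 1.44 ± 0.205 FPKM with it. Mfsd12, a cysteine carrier of lysosomes and melanosomes, fell from 138 ± 6.55 to 54.3 ± 2.91 FPKM, Spns1, a lysosomal lipid carrier, from 26.6 ± 0.861 to 14.7 ± 0.459 FPKM, and Slco3a1, an organic anion carrier, rose from 2.9 ± 0.456 to 13.8 ± 1.11 FPKM. Of 11 proteins that escort or regulate carriers 5 rose and 4 fell. Over all tested genes 29.1% rose and 31.3% fell, and no difference from these shares was tested. Emb, which escorts monocarboxylate carriers, fell from 58.7 ± 4.16 to 28 ± 2.36 FPKM, Wnk1, a kinase upstream of cation chloride cotransporters, rose from 18.5 ± 1.11 to 36.8 ± 2.15 FPKM, and Arl6ip5, which binds glutamate carriers, fell from 86.6 ± 4.7 to 62.7 ± 2.23 FPKM. Atp1b3, a subunit of the sodium potassium pump, rose from 136 ± 8.37 to 169 ± 3.36 FPKM.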

How the data were processed

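The authors deposited FPKM for protein-coding genes, with 3 decimals, with lengths and positions of genes, per the file headers. Tools named in the submitters' processing notes, without roles, are STAR 2.7.3a and featureCounts 2.0.0, with cutadapt 2.10, FastQC 0.11.9, DESeq2 1.24.0 and build GRCm38.p6. Strand setting and annotation release were not given in the sources used here, which leaves reads of overlapping genes uncertain. Groups came from the labels. Multiplied by gene length, low FPKM fell on whole steps in 100% of values tested (tolerance 0.1 read), which gave reads and depth.

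Genes with at least 1 FPKM in at least 5 samples were compared as log2(FPKM + 1) in limma 3.58.1 (R 4.3.3) with an intensity trend and Benjamini-Hochberg adjustment over 9997 genes. Voom on recovered reads called 2851 genes higher and 3357 lower. The added 1 understates changes of low genes.

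Members and lists were chosen with earlier results of these data known. Named in each class were up to 4 rising and 4 falling members with the largest change and the 2 most abundant that did not pass, over all members the 10 most abundant, and from other lists the 3 with the smallest p. Slc1a5, Slc6a13, Slc7a1, Slc7a5 to Slc7a8, Slc38a1 and the endosomal list were added after their values were seen, and the rest are named to account for the members, of which a few are not reported here. Alternatives changed the pseudocount (0.1 and 5), filter, scaling, moderation, weights, block, fold and samples.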

Additional observations from a re-analysis of the deposited data

Results flagged for a closer look

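Among the 88 members named by rule or described above, each group of 5 samples was checked for a sample far from the others by Dixon's criterion, and 8 of 176 groups held one. Chance alone gives about 1 in 20 groups, so this number is near what no true stray would give. No sample was the stray one in more than 1 gene.

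In Slc22a23 PLG sample 2 was high at 13.7 FPKM, with the others at 12 to 12.5 FPKM. In Slc7a1 PLG sample 4 was high at 6.14 FPKM, with the others at 5.71 to 5.79 FPKM. Slc2a8 was low in PLG sample 1 at 2.4 FPKM, against 3.39 to 3.67 FPKM in the others. Slc46a3 was low in PLG sample 5 at 1.996 FPKM, against 2.77 to 3.02 FPKM. Slc6a9 was low in PLG sample 3 at 8.64 FPKM, against 11 to 12 FPKM. Among untreated samples, Slc29a3 was high in sample 4 at 49.3 FPKM, against 44 to 45.4 FPKM, and Slc30a5 in sample 2 at 10.3 FPKM, against 8.01 to 8.66 FPKM. Slc4a1ap was low in untreated sample 3 at 2.6 FPKM, against 3.99 to 4.44 FPKM. The called genes among these kept their calls without the stray sample.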

How the results depend on the processing

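Counts of rising and falling carriers stayed within 1.5 times of 37 and 57 in all alternatives but 2. With a filter of 5 FPKM, which left 87 members, 30 rose and 34 fell, beside 2185 and 2133 of 6356 genes, and with a fold of at least 2 required, 11 rose and 15 fell, beside 835 and 567 over all tested genes. Leaving out 1 sample at a time gave 33 to 37 rising and 54 to 59 falling carriers, and 2701 to 2978 rising and 2936 to 3133 falling genes over all tested. Scaling to a common sum gave 35 and 48, beside 2553 and 2177 of all 9997 tested genes. Quantile normalization gave 36 and 64, beside 2705 and 3526, and voom on recovered reads 40 and 60, beside 2851 and 3357. With the replicate number as a block, 36 carriers rose and 56 fell, and 2797 and 2988 genes over all. Same-numbered samples correlated at -0.121 to 0.099 after removal of group means, and 1 of 5 samples correlated best with its own number, so the numbers were not taken as pairs.

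Of 83 named carriers, 64 passed and 63 of these passed in each of the alternatives that tested them with no required fold, with Slc7a6 as the exception. None changed direction among the called genes. Of the 19 that did not pass, 7 passed somewhere. Beside the leave-one-out values given above, quantile normalization called Slc12a4 (adjusted p 0.0476), Slc35e1 (0.00807), Slc38a2 (0.00288), Slc39a1 (0.0405) and Slc44a2 (0.034) lower. Voom called Slc38a2 (0.0482) and Slc44a2 (0.0144) lower and Slc7a7 (0.0476) higher. Slc7a7 was also called higher with sample weights (0.0212) and median-of-ratios scaling (0.0423), and Slc44a2 lower with the replicate block (0.044). The cause was not tested. On a gene of 1 kb 1 read stood for at most 0.0313 FPKM, which limits the precision of members near 1 FPKM.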

Other observations

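Of the 138 Slc genes that did not reach 1 FPKM in 5 samples, 55 stayed under 0.1 FPKM in every sample, of which 1 was listed at 0 throughout. In 21 of the 138 at least 1 sample reached 1 FPKM, and those named here were chosen after their values were seen and are given with no test. Slc28a2, a concentrative nucleoside carrier, measured 0.213, 0, 0.205, 0.461 and 0.283 FPKM in untreated samples 1 to 5 and 0.852, 1.38, 1.39, 1.17 and 1.28 FPKM in PLG samples 1 to 5, whereas the equilibrative Slc29a1 fell. Slc16a9 was at 0.301 ± 0.12 FPKM without PLG and 0.963 ± 0.187 FPKM with it, and Slc44a5 at 0.0194 ± 0.0434 FPKM without PLG and 0.831 ± 0.21 FPKM with it. On the other side stood Slc9a4, a sodium proton exchanger, at 1.03 ± 0.126 FPKM without PLG and 0.407 ± 0.177 FPKM with it, its relative Slc9a2 at 0.898 ± 0.133 FPKM without PLG and 0.221 ± 0.0895 FPKM with it, the folate carrier Slc19a1 at 1 ± 0.153 FPKM without PLG and 0.456 ± 0.173 FPKM with it and Slc2a3, a glucose carrier, at 0.958 ± 0.222 FPKM without PLG and 0.416 ± 0.0862 FPKM with it.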
